A study of Mus musculus with 108 samples.

Results

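In mouse liver, 74250 autosomal bins of 200 bp carried the flanking TSS state (state 2) at 3 months of age and active enhancer state 1 (state 3) at 12 months, both on standard diet and under caloric restriction. These state 2-to-3 bins were chosen by their state labels in the 3 groups, so the labels themselves are a description and were not tested. They covered 14.85 Mb and made up 50.2% of the 147986 autosomal bins in state 2 at 3 months (95% Wilson interval, 49.9 to 50.4%), out of 12313718 autosomal bins in all. As that percentage is the rule itself, nothing is read from it.

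The study profiled H3K4me3, H3K27ac, H3K4me1 and H3K27me3 by ChIP-seq in formalin-fixed, paraffin-embedded livers of female C57BL/6 mice, an inbred strain. The groups used here were SD 3m (3 months, standard diet, 8 mice), SD 12m (12 months, standard diet, 8 mice) and CR 12m (12 months, 9 mice), the last receiving 30% fewer calories from 3 months on. Libraries of a group were merged per mark and ChromHMM gave each bin 1 of 8 states, so every group had 1 segmentation, no replicate and no test. H3K4me3, the mark that separates state 2 from state 3, was merged from 7 libraries for SD 3m, 8 for SD 12m and 5 for CR 12m. Read depth is unknown, and the part of library number or depth in the values below was not tested. Intervals cover counting error only and are too narrow, because neighbouring bins share stretches. A change within cells and a change in the mix of cells cannot be told apart in whole liver.

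H3K4me3 marks the start of active and CpG-rich genes, H3K4me1 marks enhancers and the outskirts of promoters, and H3K27ac marks both kinds of element when active. State 1 (active TSS) combined H3K4me3 with H3K27ac, state 2 added H3K4me1, and state 3 held H3K27ac and H3K4me1 without H3K4me3. A bin that passed from state 2 to state 3 therefore moved to a label with the same enhancer-type pair of marks but without H3K4me3. A state gives only a probability of each mark, and marks were not read bin by bin, so single bins may differ. H3K4me3 is written by SET1 and MLL complexes, which CpG-rich DNA recruits through CXXC-domain proteins, and typically spreads from the first nucleosomes of a gene into its first intron.

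The middle bins of the 4 longest unbroken state 2-to-3 stretches are printed first, to show what kind of sequence lost the flanking TSS call. All are given on the plus strand of GRCm38 (mm10), from RefSeq, with CpG dinucleotides in capitals. Ctnnd1 (chr2:84639601-84639800), Atf7ip (chr6:136527201-136527400) and Trim24 (chr6:37888001-37888200) lay in introns of the named gene, and the Chd2 bin (chr7:73547401-73547600) lay upstream of that gene, in an intron of the noncoding RNA gene Chaserr.

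Ctnnd1: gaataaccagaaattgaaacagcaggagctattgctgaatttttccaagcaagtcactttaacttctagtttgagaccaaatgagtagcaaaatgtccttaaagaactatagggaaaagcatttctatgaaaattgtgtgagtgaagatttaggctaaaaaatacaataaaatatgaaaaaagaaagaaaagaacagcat
Atf7ip: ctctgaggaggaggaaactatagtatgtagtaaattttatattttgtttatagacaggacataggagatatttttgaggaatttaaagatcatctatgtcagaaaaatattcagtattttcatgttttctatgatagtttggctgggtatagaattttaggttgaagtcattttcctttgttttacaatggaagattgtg
Chd2: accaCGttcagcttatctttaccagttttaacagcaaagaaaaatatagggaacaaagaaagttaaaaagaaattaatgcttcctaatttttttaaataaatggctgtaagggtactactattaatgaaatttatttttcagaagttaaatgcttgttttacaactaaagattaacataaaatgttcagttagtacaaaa
Trim24: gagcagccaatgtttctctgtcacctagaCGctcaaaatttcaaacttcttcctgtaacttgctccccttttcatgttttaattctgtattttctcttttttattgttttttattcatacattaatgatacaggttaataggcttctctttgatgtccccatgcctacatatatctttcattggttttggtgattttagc

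The middle bins of the 2 longest stretches in state 2 in all 3 groups are shown for contrast. Mroh2a (chr1:88241001-88241200) held 53 exonic bases and Sfi1 (chr11:3192001-3192200) was intronic.

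Mroh2a: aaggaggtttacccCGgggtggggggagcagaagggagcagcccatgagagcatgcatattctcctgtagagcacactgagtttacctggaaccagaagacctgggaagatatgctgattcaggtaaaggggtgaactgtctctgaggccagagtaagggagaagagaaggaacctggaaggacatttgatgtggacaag
Sfi1: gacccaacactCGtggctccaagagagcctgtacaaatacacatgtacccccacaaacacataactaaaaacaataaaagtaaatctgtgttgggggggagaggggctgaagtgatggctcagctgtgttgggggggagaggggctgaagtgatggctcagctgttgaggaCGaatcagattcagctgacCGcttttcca

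The 4 state 2-to-3 sequences had a GC content of 31%, 29.5%, 25.5% and 34% in the order printed, with 0, 0, 1 and 1 CpG. The 2 retained sequences had 52% and 50.5% GC, with 1 and 3 CpG. Of 6 transcription factor motifs searched, these bins held only 1 match, a C/EBP core in the Ctnnd1 bin. These are single examples from unusually long stretches. The 2 retained stretches spanned 31400 bp (Mroh2a) and 16000 bp (Sfi1), against a mean of 618 bp for retained stretches. Whether reads map uniquely there was not tested. The bins as a whole are described next.

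State 2 covered less of the genome at 12 months than at 3 months. It covered 147986 autosomal bins in SD 3m but 55708 in SD 12m and 47432 under CR, while state 3 covered 1219378, 1299782 and 1525831. In SD 12m, 55.3% of the 3-month state 2 bins were in state 3 (50.7 to 59.8% over the 19 autosomes), 34.7% were still in state 2 and 6.64% were in state 1. In CR 12m, 61.6% were in state 3 (57.0 to 65.1% over autosomes), 28.4% in state 2 and 5.55% in state 1. These comparisons share the SD 3m segmentation. Bins that left state 2 were thus more often found in state 3 than in state 1 on either diet. State 1 was also by far the smaller state at 12 months, with 46571 bins (SD) and 38344 bins (CR). As the rule uses these same labels, no preference for a route is read from these shares.

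**Figure D1:**
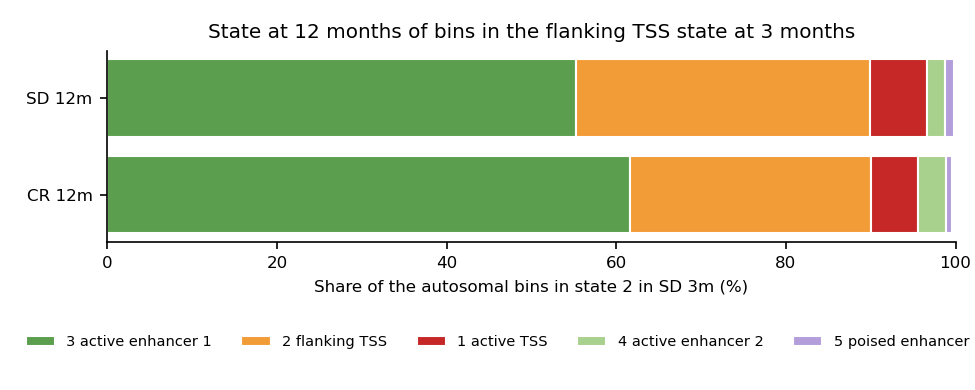
Share of the 147986 autosomal state 2 bins of SD 3m (x axis, percent) by state at 12 months on each diet (bars), with states 6 to 8 left out. State 3 took 55.3% in SD 12m and 61.6% in CR 12m, and state 2 kept 34.7% and 28.4%.

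The opposite route was rare. Among 1219378 bins labelled state 3 at 3 months, 358 (0.0294%) had become state 2 in both 12-month groups. This share could not be large. State 2 held only 55708 (SD) and 47432 (CR) bins at 12 months, and 51340 and 42042 of these were already in state 2 at 3 months. As its base also differs, it is not set against the share of the forward route. Of all 147986 bins in state 2 at 3 months, 33755 (22.8%) were retained in state 2 in both groups and 4150 (2.80%) were in state 1 in both. Another 7521 (5.08%) were in state 3 in SD 12m only, and 16895 (11.4%) in CR 12m only, of which 82.7% were in state 2 in SD 12m. From active TSS chromatin itself, 2411 of 52850 state 1 bins (4.56%) were in state 3 in both groups. State 2-to-3 bins made up 5.71% of all state 3 bins in SD 12m and 4.87% in CR 12m.

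Every autosome held state 2-to-3 bins. Their share of the 3-month state 2 bins ran from 44.2% on chromosome 13 to 54.5% on chromosome 19, a narrower range than that of their density, which was 19.5 bins per Mb on chromosome 14 and 65.0 on chromosome 11. On the X chromosome, which the rule leaves out, 326 of 947 state 2 bins (34.4%) took the same route.

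The bins formed 18935 unbroken stretches with a mean length of 784 bp and a median of 600 bp, and 5050 stretches (26.7%) were a single bin. In 5668 stretches (29.9%) the length reached 1 kb, and in 1324 it reached 2 kb. State 2 stretches as such had a mean length of 1159 bp in SD 3m, 731 bp in SD 12m and 700 bp in CR 12m. Of 25540 state 2 stretches in SD 3m, 11127 (43.6%) were state 2-to-3 in part, 6724 (26.3%) throughout and 7689 (30.1%) in no bin.

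Many stretches, but not all, lay between state 2 on the TSS side and state 3 on the far side. State 2-to-3 bins were not concentrated at the ends of 3-month state 2 stretches. They made up 48.8% of the end bins and 53.6% of the bins 1000 bp from an end. In SD 3m, the bin next to a stretch on the side of the nearest TSS was in state 2 in 58.8%, in state 3 in 28.2% and in state 1 in 11.4%. On the far side, the neighbouring bin was in state 3 in 80.8% and in state 2 in only 9.52%. The pair of state 2 toward the TSS and state 3 away from it accounted for 9500 stretches (50.2%), and 3947 (20.8%) had state 3 on both sides and were islands within enhancer chromatin. At 12 months the bin toward the TSS was in state 2 for 41.6% of stretches in SD 12m and for 25.0% in CR 12m. Stretches that touched an active TSS bin at 3 months numbered 3087 (16.3%).

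Joined runs of states 1 and 2 in SD 3m are called promoter domains here. At least 1 state 2-to-3 bin was present in 13451 domains (71.5%), of mean length 2503 bp, and 5360 domains of mean length 1212 bp had none. No bin was left in state 1 or 2 in 37.9% of the former in SD 12m and 41.8% in CR 12m, and in 53.4% and 61.0% of the latter. When such a domain also held an active TSS bin (7799 domains, mean 3569 bp), 51.8% of its bins were still in state 1 or 2 in SD 12m and 44.9% in CR 12m, and the whole domain was gone in 7.42% and 11.2%. When it held none (5652 domains, mean 1033 bp), the whole domain was gone in 80.0% in SD 12m and 84.0% in CR 12m. Because a state 2-to-3 bin left state 2 by definition and the classes differ in length, these shares are in part set by the rule and are a description only.

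Position around the TSS separated the fates. State 2-to-3 bins lay at a median of 2307 bp from the nearest TSS (quartiles 1369 and 4385 bp), against 956 bp (590 and 1625 bp) for the retained bins. Within 2 kb of a TSS lay 42.7% of the state 2-to-3 bins, 80.7% of the retained bins and 5.46% of bins in state 3 in all groups. For all state 2 bins of SD 3m the share was 59.3%. Bins in state 3 in only 1 of the 12-month groups were intermediate, with medians of 1408 bp (SD 12m only) and 1327 bp (CR 12m only). Beyond 20 kb from any TSS lay 6777 state 2-to-3 bins (9.13%).

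Shares differed by side as well as by distance. Of the state 2 bins at 2 to 5 kb from the TSS, 78.0% upstream and 74.9% downstream were state 2-to-3. At 1 to 2 kb the shares were 71.4% upstream and 44.4% downstream. At 500 bp to 1 kb they were 48.3% and 14.1%, and within 500 bp 30.5% and 10.5%. Retained bins showed the reverse, with 52.6% of state 2 bins at 500 bp to 1 kb downstream but 18.6% at the same distance upstream. Accordingly 81.3% of the retained bins lay downstream of the nearest TSS, and 66.7% of the state 2-to-3 bins, against 70.2% of all state 2 bins of SD 3m. The flanking TSS state was kept most often in the first kb of the transcribed side.

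**Figure D2:**
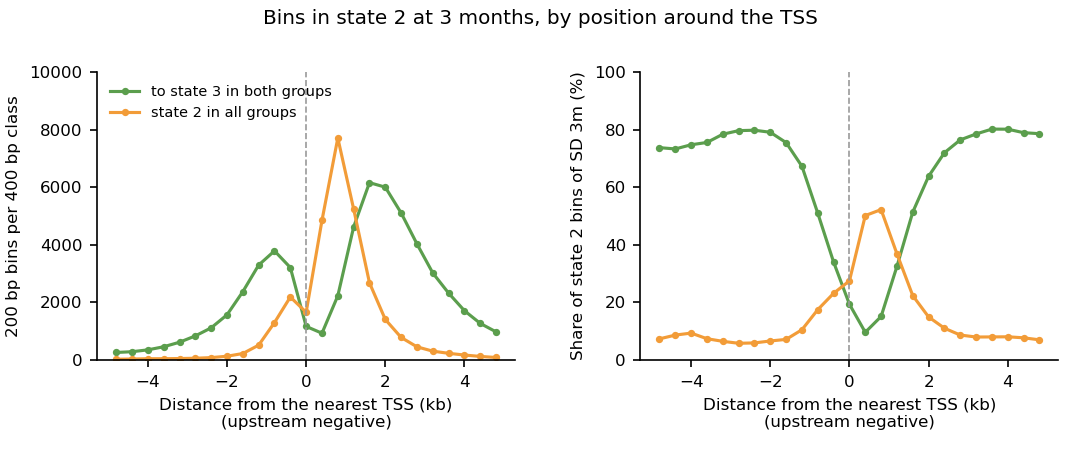
Bins in state 2 in SD 3m by distance from the nearest TSS (x axis, kb, upstream negative), in classes of 400 bp. Left, number of bins that went to state 3 in both 12-month groups (green) or stayed in state 2 in all groups (orange). Right, the same as percent of all state 2 bins of SD 3m in that class. Retained bins peak within 1 kb downstream, and state 2-to-3 bins dominate beyond 2 kb on both sides (78.0% and 74.9% at 2 to 5 kb).

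Aligning whole genes at the TSS shows the same labels in another way and is not separate evidence. The genes were chosen for state 2 at 3 months, so lower state 2 at 12 months is in part set by that choice. They also hold 57709 (77.7%) of the state 2-to-3 bins, which enter the state 3 counts at 12 months. Of 24963 autosomal genes, 11502 had a state 2 bin in SD 3m within 5 kb of their TSS, which they had to have to be counted here. At 3 months state 2 peaked 1000 bp downstream, in 70.5% of these genes, and at 12 months 800 bp downstream (SD, 49.6%; CR, 44.9%). Upstream it peaked at 400 bp, in 50.3% of the genes in SD 3m but 24.6% in SD 12m and 19.4% under CR. State 3 peaked 4000 bp downstream in SD 3m (52.2%) and 2400 bp downstream in SD 12m (69.1%) and CR 12m (74.6%), closer to the gene start. The TSS bin itself was in state 1 in 63.0% (SD 3m), 63.2% (SD 12m) and 55.1% (CR 12m) of the genes.

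**Figure D3:**
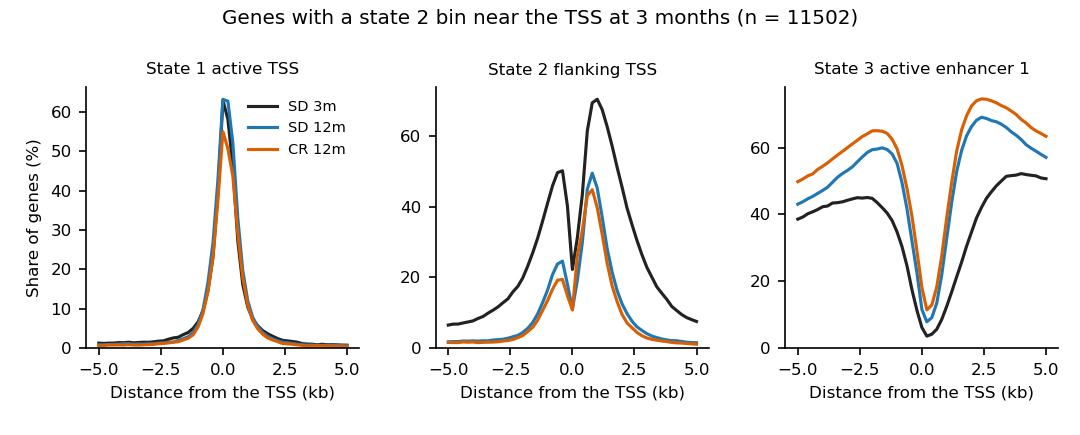
Share of the 11502 genes (y axis, percent) in state 1, 2 or 3 by distance from the TSS (x axis, kb, upstream negative, 200 bp bins) in SD 3m, SD 12m and CR 12m. State 2 is lower at 12 months on both sides of the TSS (upstream peak in 50.3% of genes at 3 months, against 24.6% for SD 12m and 19.4% for CR 12m), and state 3 moves in toward the TSS. The genes were chosen for state 2 at 3 months, so these differences are in part set by that choice. State 1 peaks at the TSS bin in each group, lower in CR 12m (55.1%, against 63.0% in SD 3m). In SD 3m, SD 12m and CR 12m it holds 27.2%, 33.1% and 29.1% of genes at 600 bp downstream. At 2000 bp upstream it holds 2.56%, 1.50% and 1.49%.

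By annotation, 64.2% of the state 2-to-3 bins had their centre in an intron, 29.6% between genes, 2.41% in a coding exon, 2.02% in a 3′ UTR and 0.753% in a 5′ UTR. Retained bins were 74.7% intronic and 12.9% intergenic, with 5.56% in coding exons and 4.08% in 5′ UTRs. Autosomal bins as a whole were 59.6% intergenic and 37.6% intronic. All state 2 bins of SD 3m were 65.5% intronic and 25.6% intergenic, and bins in state 3 in all groups 65.5% and 30.6%. The intronic share of state 2-to-3 bins was thus near that of both sets.

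Base composition was not used by the rule and differed between the fates. State 2-to-3 bins had 43.6% GC, 2.30 CpG per bin and 24.3% repeat sequence. Retained bins had 47.9% GC, 4.93 CpG and 14.0% repeats. Bins in state 3 in all groups had 44.3% GC, 1.97 CpG and 24.4% repeats, close to the state 2-to-3 bins, whereas bins in state 1 in all groups had 63.9% GC and 16.8 CpG. Bins in state 1 throughout had 8.88% repeats. In all 3 measures the state 2-to-3 bins lay nearer to bins in state 3 throughout than to bins in state 1 throughout. The same held for all state 2 bins of SD 3m (45.4% GC, 3.58 CpG, 19.98% repeats). It was thus not particular to the state 2-to-3 bins. Retained bins lay nearer to state 3 in GC and CpG but nearer to state 1 in repeats.

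The share of state 2-to-3 bins was lower at each step up in CpG number. It was 68.6% of state 2 bins without a CpG, 61.8% with 1 to 2, 46.4% with 3 to 5, 25.0% with 6 to 10, 11.9% with 11 to 15 and 9.13% with 16 or more. Within 2 kb of a TSS the share was higher upstream than downstream in each CpG class, with 72.8% against 49.0% at no CpG and 14.0% against 3.20% at 16 or more. Side and CpG content thus both went with the fate of a bin.

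Composition also varied with place within the state 2-to-3 bins. Those up to 2 kb upstream had 44.8% GC and 3.01 CpG per bin, those up to 2 kb downstream 44.4% and 2.47, and those 2 to 5 kb downstream 42.6% and 1.79. The GC box described below occurred in 6.04%, 3.88% and 2.32% of these bins. Longer stretches were poorer in CpG, with 2.72 per bin in single-bin stretches and 1.97 in stretches of 2 kb or more. The latter also lay farther out, with 22.4% of their bins within 2 kb of a TSS against 49.4% for single bins.

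Motifs were searched on both strands, and those that contain a CpG were less frequent in state 2-to-3 bins than in retained bins. As the former also held fewer CpG (2.30 against 4.93 per bin), this difference is not separate from CpG content. No role of a factor is read from it. GGGCGG, the GC box bound by Sp1 and Klf factors, occurred in 3.80% of state 2-to-3 bins, 8.09% of retained bins, 47.7% of bins in state 1 in all groups and 2.01% of all autosomal bins. CCGGAAG, the core of ETS factor sites, occurred in 0.958%, 2.18%, 8.34% and 0.579% of the same sets. Motifs of hepatocyte regulators, which do not require a CpG, varied less. TGTTTAC, bound by forkhead factors such as the FOXA proteins, occurred in 3.23% of state 2-to-3 bins, 2.94% of retained bins and 2.98% of all bins. CAAAGTCC, of the HNF4 type, occurred in 0.897%, 1.02% and 0.762%, and TTGCNNAA, a C/EBP core, in 8.82%, 8.88% and 9.28%. The palindromic E-box CACGTG, bound by the clock factors CLOCK and BMAL1 and by MYC, was found in 2.42%, 2.95% and 1.99%.

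At the level of genes, 9365 of the 11502 genes (81.4%) had at least 1 state 2-to-3 bin nearest to their TSS and within 5 kb of it, with a median of 5. In the median gene 44.4% of the state 2 bins took this route. In 730 genes every state 2 bin did, and 2137 genes had none. State 2-to-3 bins lay on both sides of the TSS in 3539 genes, only downstream in 4344 and only upstream in 1482. The TSS bin was in state 1 in all 3 groups in 4282 of the 9365 genes (45.7%), and in another single state in all groups in 1211 (12.9%). It went from state 2 to state 3 in both 12-month groups in 481 (5.14%), from state 1 to state 3 in both in 107 (1.14%), and took some other path in 3284 (35.1%).

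Genes with the most state 2-to-3 bins had many state 2 bins at 3 months by the rule, since each such bin was in state 2 then. They differed in what became of the start site. Counts of states below are out of the 51 bins (10.2 kb) centred on the TSS. Sp1, a zinc-finger factor that binds GC boxes, had 34 such bins of 37, and its window held 38 bins in state 2 in SD 3m but 2 in SD 12m and 3 under CR. State 3 there went from 7 bins to 42 in each 12-month group. Its TSS bin went from state 1 to active enhancer state 2 (state 4) in both, so at this gene the core changed too.

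Setd1a, a methyltransferase that writes H3K4me3, lost the flanks and kept the core. It had 28 state 2-to-3 bins of 33, with 7 bins in state 1 in each group. State 2 held 40 bins in SD 3m but 5 in SD 12m and 4 under CR, and state 3 held 4, 39 and 40. Trp53bp2, whose product ASPP2 binds p53, had 33 of 39 and 3 bins in state 1 in each group. Its state 2 count was 39, 5 and 5.

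Rab5b, a small GTPase of early endosomes, had 31 of 34, with 38, 4 and 4 bins in state 2. Its TSS bin passed from state 1 to state 3 in both groups. Bmf, a BH3-only promoter of apoptosis, had 30 of 36, and its TSS bin passed from state 2 to state 3. Cirbp, a cold-inducible RNA-binding protein, had 29 of 34, and 22 of these lay upstream. Tmem107, a protein of the ciliary transition zone, also had most of its bins upstream, 22 of 28. Crlf3 (31 of 37), Wasf2, a regulator of actin branching (29 of 43), Mgrn1, a ubiquitin ligase (28 of 33), and Hspa9, a mitochondrial chaperone (28 of 42), followed. The noncoding gene 2310001H17Rik also had 28, of 43, and Mup5 had the most.

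At Mup5, a gene of the major urinary proteins, all 37 state 2 bins went to state 3. At 3 months its window held 13 bins of state 1 and 38 of state 2, and at 12 months 50 (SD) and 51 (CR) bins were in state 3. The Mup genes are near-identical copies, and reads that match several of them could be split or removed, so the position of this change among the copies is uncertain.

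**Figure D4:**
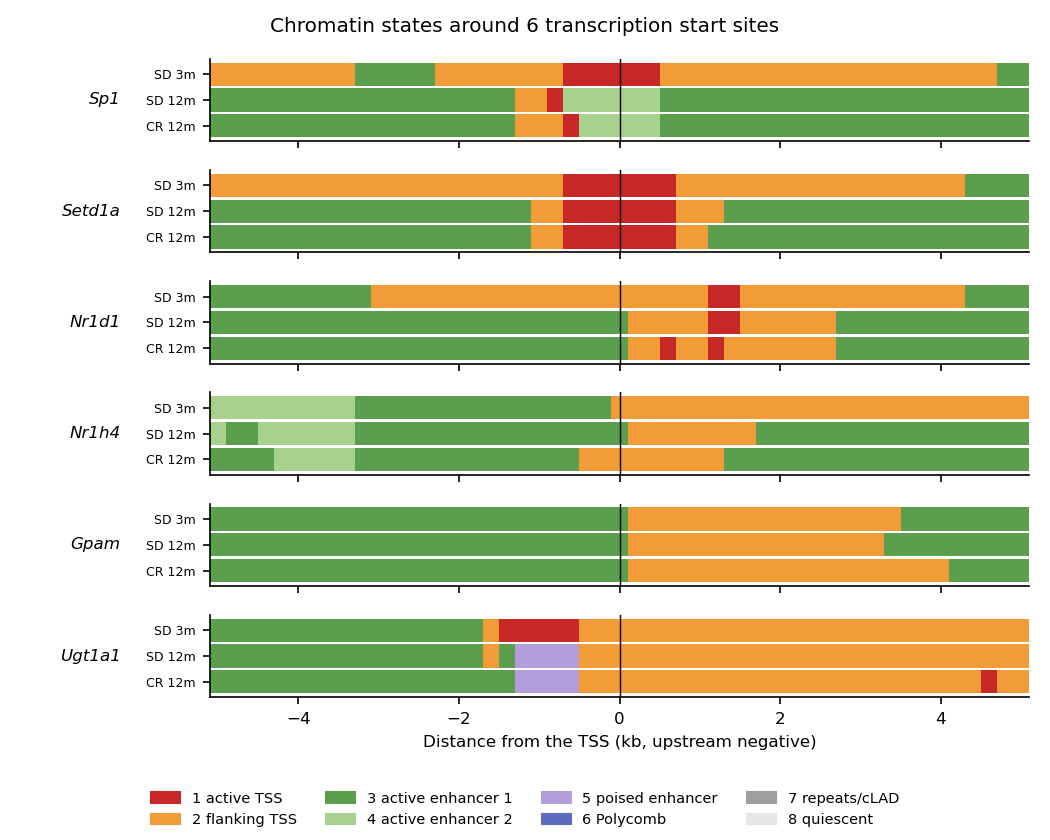
Chromatin state (colours) of each 200 bp bin within 5 kb of the TSS of 6 genes in SD 3m, SD 12m and CR 12m (rows; x axis, distance from the TSS in kb, upstream negative). Sp1 and Setd1a lose most of a broad state 2 domain to state 3, Nr1d1 and Nr1h4 are narrowed, and Gpam and Ugt1a1 have no state 2-to-3 bin (0 of 17 and 0 of 29).

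Of the 6 longest stretches, 4 lay within a single gene, outside its exons. In an intron of Ctnnd1, which encodes the cadherin partner p120-catenin, chr2:84632201-84647200 (15000 bp) lay between 11777 and 26776 bp downstream of the TSS. Atf7ip, a cofactor of SETDB1 in silencing, held 11800 bp (chr6:136521401-136533200) that began 2550 bp downstream of its TSS. Upstream of Chd2, a chromatin remodeller, 9200 bp overlapped Chaserr. Trim24, a coregulator of nuclear receptors, held 8400 bp, and Cltc, the clathrin heavy chain, 7800 bp. The last, of 7400 bp, was intergenic, 15482 bp downstream of the TSS of the noncoding gene 2310001H17Rik.

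These long stretches did not all border the same chromatin. Those in Trim24 and near 2310001H17Rik lay in state 3 on both sides in all 3 groups, so that each was a state 2 island absorbed by its surroundings. Those in Ctnnd1, Atf7ip and Cltc and upstream of Chd2 adjoined state 2 that remained in SD 12m and was in state 3 in CR 12m. The stretch of at least 1 kb farthest from a TSS was 1400 bp at chr7:71219001-71220400, with its nearer end at -689295 bp from the TSS of 4930441H08Rik and state 3 on both sides.

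Gene lists were described by the share of their state 2 bins within 5 kb of the TSS that were state 2-to-3, beside 47.2% over all autosomal genes. The share was 14.8% for gluconeogenesis, amino acid and urea cycle genes, 18.6% for plasma proteins, 20.9% for drug metabolism and 29.1% for hepatocyte transcription factors. It was 24.0% for the short list of Kupffer, endothelial, stellate and biliary cell genes (6 of 25 bins), 30.9% for fatty acid oxidation and 31.1% for fatty acid and sterol synthesis. Retained bins made up 55.7% of the state 2 bins of the gluconeogenesis list, 47.7% for plasma proteins, 49.5% for drug metabolism and 35.5% for hepatocyte transcription factors, against 24.9% over all genes and 0% (0 of 25) for the Kupffer, endothelial, stellate and biliary cell list.

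Lists of widely expressed or regulatory genes lay nearer to the whole. The share was 36.8% for oxidative phosphorylation, 40.6% for cytosolic ribosomal proteins, 41.6% for insulin, growth hormone and IGF genes, 43.2% for the circadian clock, 43.3% for autophagy and lysosome, 45.0% for immediate early and stress genes and 51.8% for writers, erasers and readers of the marks. The lists are small and were chosen with results in view, so these are counts of bins and no more. By genes with at least 1 such bin, the whole stood at 81.4%, and the lists were at 80.3% (ribosomal proteins), 82.7% (oxidative phosphorylation), 80% (circadian clock, fatty acid oxidation), 84.6% (lipid synthesis), 86.4% (insulin, growth hormone and IGF), 87.5% (writers, erasers and readers), 89.5% (autophagy and lysosome), 92.3% (immediate early and stress), 76% (hepatocyte transcription factors), 68.4% (gluconeogenesis list and drug metabolism), 57.7% (plasma proteins) and 28.6% (Kupffer, endothelial, stellate and biliary cells). For most lists the share of genes lay near that over all genes, and the counts of genes below are read as descriptions.

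The difference between lists was widest away from the TSS. At 2 to 5 kb, 75.5% of the state 2 bins of all genes were state 2-to-3. The share was 90.0% for ribosomal protein genes (108 of 120 bins), 90.1% for oxidative phosphorylation (154 of 171), 86.0% for autophagy and lysosome (74 of 86) and 76.9% for the writers, erasers and readers (130 of 169). It was 13.8% for gluconeogenesis, amino acids and urea cycle (17 of 123), 12.7% for plasma proteins (9 of 71), 28.4% for drug metabolism (38 of 134) and 42.5% for hepatocyte transcription factors (88 of 207). Within 1 kb the shares lay closer, at 23.9% for all genes, 11.4% for the gluconeogenesis list and 22.5% for plasma proteins. They were 13.8% for ribosomal protein genes and 13.5% for oxidative phosphorylation. These last lists thus lay below all genes near the TSS and above them at 2 to 5 kb, and their pooled shares mix both.

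**Figure D5:**
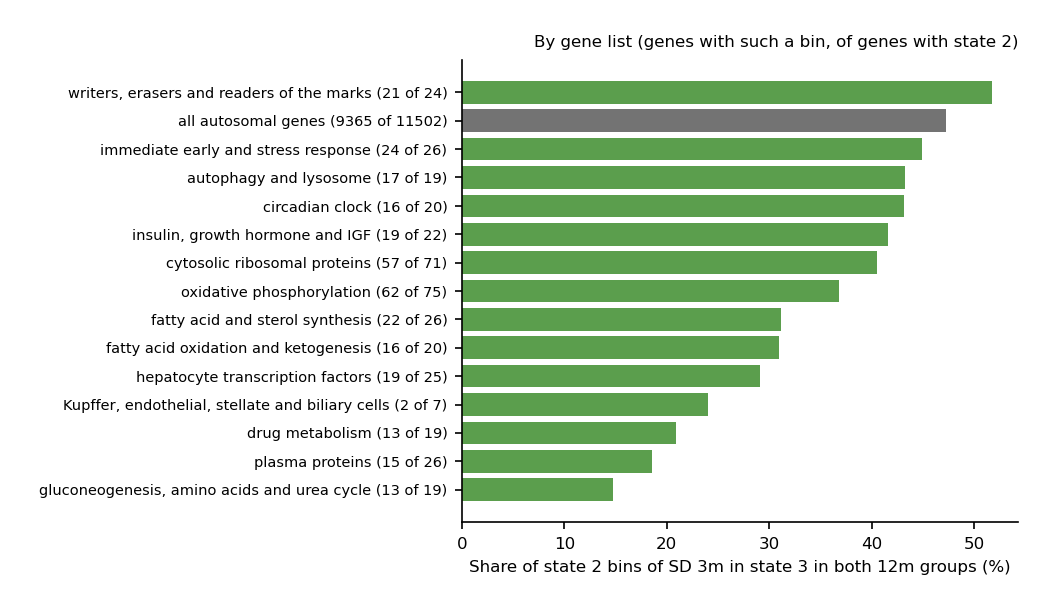
Share of the state 2 bins of SD 3m within 5 kb of the TSS that were in state 3 in both 12-month groups (x axis, percent), for each gene list and for all autosomal genes (grey). Numbers in brackets give the genes with at least 1 such bin, of the genes with a state 2 bin. The share runs from 14.8% for gluconeogenesis, amino acids and urea cycle to 51.8% for writers, erasers and readers of the marks.

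Among gluconeogenesis, amino acid and urea cycle genes, 13 of 19 had a state 2-to-3 bin. Pcx, which makes oxaloacetate from pyruvate, and Gcgr, the glucagon receptor, had 8 each, of 15 and 21, and Gls2, the liver glutaminase, had 5 of 18. Gpt, alanine aminotransferase, had 0 of 15.

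Among plasma proteins, 15 of 26 genes had a state 2-to-3 bin. Apoe, the apolipoprotein of remnant particles, had 6 of 27, all upstream, and retained 15. Apoa2, of high-density lipoproteins, and C9, of the complement membrane attack complex, had all of theirs, 5 of 5 and 4 of 4. These counts take only bins whose nearest TSS is that of the gene. The whole window around the Apoa2 TSS held 27 state 2 bins at 3 months, and each 12-month group still had 10. Apob, the structural protein of very-low-density lipoproteins, had 0 of 9 and retained 7.

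In drug metabolism, 13 of 19 genes had such a bin, led by Ephx1, microsomal epoxide hydrolase (8 of 10), Slco1b2, an anion uptake carrier (7 of 17), and Gstm1, a glutathione transferase (7 of 21). Ugt1a1, which conjugates bilirubin, had 0 of 29 and retained 27, and Abcc2, the canalicular export pump, had 0 of 17 and retained 15. Ugt1a1 borders the longest retained stretch of the genome, 31400 bp in Mroh2a. Around the Mroh2a TSS, state 2 held 51, 50 and 50 of 51 bins in SD 3m, SD 12m and CR 12m. Read mapping at this locus was not tested. Of the 5 genes with the most retained bins, Mroh2a (49 of 50), Hjurp (43 of 50), Trpm8 (34 of 35) and Ugt1a1 (27 of 29) were neighbours on chromosome 1. The other, Txnip, a thioredoxin-binding regulator of glucose uptake, retained 28 of 46 and had 16 state 2-to-3 bins, all upstream.

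Among hepatocyte transcription factors, 19 of 25 had a state 2-to-3 bin. Nr1h4, the bile acid receptor FXR, had 17 of 26, all downstream. Gata4 had 15 of 35, all upstream. Nr0b2, the repressor SHP, had 0 of 16, and Foxa3 had 0 of 11.

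In lipid synthesis, 22 of 26 genes had such a bin. Fdps, farnesyl diphosphate synthase, had 15 of 28 and retained the other 13, and each 12-month group had 13 state 2 bins in the window. Srebf2, the regulator of sterol synthesis, had 10 of 15, and Insig2, which holds SREBP proteins in the endoplasmic reticulum, 10 of 23. Fasn, fatty acid synthase, had 0 of 10 and retained 9, and Gpam, the first acyltransferase of triglyceride synthesis, had 0 of 17 and retained 16.

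In fatty acid oxidation and ketogenesis, 16 of 20 genes had such a bin. Hadha and Hadhb, which encode both subunits of the mitochondrial trifunctional protein and share a divergent promoter, had 12 of 20 and 8 of 20. All of these lay downstream of the respective TSS. As each bin counted for its nearest TSS, little else was possible at this divergent pair, and nothing is read from the side. Acadl, long-chain acyl-CoA dehydrogenase, had 11 of 29. Ppara, the nuclear receptor that drives the pathway, had 0 of 7, and Cyp4a14 0 of 6.

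In the circadian clock, 16 of 20 genes had such a bin. The labels do not give the time of day of liver collection, and its part in these states was not tested. Nr1d1, the repressor REV-ERBα, had 24 of 35 and retained 10, and state 2 in its window held 35, 11 and 11 bins in SD 3m, SD 12m and CR 12m. Tef had 18 of 25 and Csnk1d, a kinase of PER proteins, 16 of 24. Hlf, which like Tef is a PAR bZIP factor, had 0 of 20 and retained 12, and Cry1 had 0 of 5.

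In the insulin, growth hormone and IGF list, 19 of 22 genes had such a bin. Foxo3, a forkhead factor restrained by insulin, had 14 of 18, Tsc1, a brake on mTOR, 13 of 15, and Stat5b, which transmits growth hormone signals, 12 of 21. Irs1, an insulin receptor substrate, had 0 of 11 and retained 8, and Igfals, which carries IGF in plasma, had 0 of 6 and retained all 6. The state 1 core of Foxo3 spanned 18, 20 and 17 bins in SD 3m, SD 12m and CR 12m.

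Among immediate early and stress genes, 24 of 26 had such a bin. Zfp36, which destabilises mRNAs of cytokines, had 20 of 29, all upstream, Junb 17 of 26 and Gadd45b 15 of 20. Junb held 9 bins in state 1 in SD 3m and 12 in each 12-month group. Ddit4, an inhibitor of mTOR, had 0 of 9, and Gadd45g 0 of 5. Among autophagy and lysosome genes, 17 of 19 had one, led by Sqstm1, the cargo receptor p62 (19 of 33), Ctsb, cathepsin B (14 of 26), and Atg12, a ubiquitin-like conjugation factor (11 of 19). Ulk1, the initiating kinase, had 0 of 7.

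Among writers, erasers and readers of the marks, 21 of 24 genes had such a bin. Beside Setd1a these were led by Ezh1, an H3K27 methyltransferase (26 of 31), and Kmt2d, the H3K4 methyltransferase of enhancers (18 of 30). State 2 at Ezh1 held 32 bins in SD 3m but 4 in SD 12m and 3 under CR. Crebbp, an H3K27 acetyltransferase, and Hdac3, a deacetylase, had 0 of 9 each. These are states of the genes' own chromatin and say nothing of the level of the enzymes.

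Of ribosomal protein genes, 57 of 71 had such a bin, with Rps15a (18 of 26), Rpl26 (15 of 20) and Rpl11 (14 of 19) in front and Rps12 (0 of 8) and Rpl15 (0 of 6) without one. Of oxidative phosphorylation genes, 62 of 75 had one. Subunits of the ATP synthase, Atp5d (17 of 22) and Atp5h (17 of 24), and Ndufa6 of complex I (16 of 32) held the most, and Sdhd (0 of 13) and Atp5k (0 of 7) held none.

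Marker genes were used to check the tissue. The TSS bin of the hepatocyte markers Apob and Tf (transferrin) was in state 1 in all groups, that of Alb, albumin, in state 4 in all groups, and Pax6 and Neurod1, which are silent in liver, were in state 6 (Polycomb) in all groups. The TSS bins of the hepatocyte markers Apoa1, Fgb and Serpina1a were in state 4 in SD 3m and in another state in at least 1 of the 12-month groups. Of the markers of other cells, Clec4f, Lyve1 and Cd3e had 1 TSS state in all groups and the rest varied. For example, in the order SD 3m, SD 12m and CR 12m, endothelial Cdh5 was in states 8, 1 and 4 and Stab2 in 4, 7 and 4, biliary Sox9 in 7, 4 and 1 and Krt19 in 8, 8 and 4, and stellate Col1a1 in 5, 4 and 6. The part of cell mix in the values above was not tested. Of 25 autosomal genes of Kupffer, endothelial, stellate and biliary cells and lymphocytes, 7 had a state 2 bin in SD 3m and 2 had a state 2-to-3 bin, Pecam1 (5 of 9) and Stab1 (1 of 4). Ptprc, the leukocyte marker CD45, had 8 state 2 bins in SD 3m, 0 of them state 2-to-3 and none retained. Of 19 autosomal developmental regulators silent in liver, 0 had a state 2 bin in SD 3m.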

How the data were processed

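Per the labels and the study's methods, the authors aligned reads to mm10 with BWA 0.6.2-r126, removed unmapped, duplicate and MAPQ 0 reads with SAMtools 0.1.18, merged libraries per group and mark, and ran ChromHMM with 8 states. The deposited files hold the authors' state label of every 200 bp bin, 13168874 bins on 20 chromosomes per group. The 6-month group was not analysed here. States were compared bin by bin with Python 3.11.15 and numpy 2.4.6. Positions are bin centres relative to the nearest TSS, taking 1 TSS per gene from its longest curated RefSeq transcript (24963 autosomal genes, GRCm38.p6). The last whole bin of all 20 chromosomes equals that of this assembly. A bin counted for the gene of its nearest TSS within 5 kb. Genes named were the 12 with the most members, those at the 6 longest stretches, 3 per list with the most members and up to 2 per list with 5 or more state 2 bins and no member, the 5 with the most retained bins, and markers; some of these are not reported here. The 6 genes mapped bin by bin were picked from these after their values were seen. Members and lists were chosen with earlier results of these data known. Counting was tested on simulated data.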

Additional observations from a re-analysis of the deposited data

How the results depend on the processing

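With 1 segmentation per group no replicate error exists, so values were compared with their counting intervals. Leaving out the end bins of state 2 stretches gave a share of state 2-to-3 bins of 50.8%, 43.6% within 2 kb of a TSS, 69.3% downstream, 0% of stretches touching state 1 (by construction), 43.1% GC, 76.9% of genes with such a bin and a mean stretch of 813 bp. Only stretches of at least 600 bp gave 42.2%, 40.1%, 68.7%, 13.4%, 43.4%, 57.6% and 1191 bp. Allowing states 3, 4 or 5 at 12 months gave 54.4%, 43.4%, 66.1%, 22.4%, 43.5%, 88.4% and 748 bp. Every curated transcript start put 47.3% within 2 kb. Protein-coding genes only put 40.4% within 2 kb and 67.7% downstream, with 82.6% of genes. Within 1 kb lay 15.3%. With genes taken within 2 kb, 74.4% had such a bin. Adding the X chromosome moved the mean stretch to 783.5 bp and left the other 6 results within their intervals.

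State labels carry no depth or signal, so a small fall in H3K4me3 that crosses the calling limit and a large one give the same label. The segmentations rest on unequal numbers of H3K4me3 libraries, and mice cannot be told apart within a group. Single-bin stretches, 26.7% of all, depend on 1 call per group. Replicates were not analysed here, so no test was made.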
